A study of Danio rerio with 24 samples.

Results

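The 9 genes described here encode enzymes that bring long-chain fatty acids into mitochondria and shorten them by beta-oxidation. They are cpt1aa, cpt1ab and cpt2 of the carnitine shuttle, the acyl-CoA dehydrogenases acadvl, acadl and acadm, and hadhaa, hadhab and hadhb, which encode subunits of the mitochondrial trifunctional protein. They were chosen by name, with earlier results of these data known. All 9 were found by Ensembl ID among the 32520 genes of the count table. All 9 also passed the filter on low counts, which asked for at least 10 counts in total over the libraries of a fit. The gene table gives 7 of them the symbol of the human gene. The ID listed as CPT1A was taken as cpt1aa and the ID listed as HADHA as hadhab, because cpt1ab and hadhaa have IDs of their own.

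RNA was measured in 24 pools of 13 livers each, dissected from zebrafish larvae at 13 days of age, with the larvae of a batch taken from the same clutch. Nontransgenic siblings (WT) were compared with larvae whose transgene expresses dre-mir-21-1 and Dendra2 from the fabp10a promoter of hepatocytes (miR-21OE), with mCherry under the cryaa promoter as a lens marker. From day 6 they ate a normal control diet (NCD) or the same diet with 10% cholesterol by weight (HCD). Each of batches 1 to 9 gave 1 WT-NCD and 1 WT-HCD library, so these groups have 9 each. Batches 7 to 9 also gave the 3 libraries of miR-21OE-NCD and the 3 of miR-21OE-HCD. No library carried the transgene without the microRNA, so the effect of miR-21 cannot be told apart from that of the rest of the transgene.

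Fatty acids with long chains cross into the mitochondrial matrix as esters of carnitine. Cpt1, on the outer membrane, makes the ester and is blocked by malonyl-CoA, an intermediate of fatty acid synthesis, and Cpt2, on the inner membrane, restores the acyl-CoA. In the matrix an acyl-CoA dehydrogenase suited to the chain length takes the first step of each round, and for long chains the trifunctional protein takes the remaining steps. In the liver of mammals these genes are known targets of the nuclear receptor PPAR alpha, and the acetyl-CoA they yield feeds the citrate cycle and ketone body synthesis.

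Total counts per library ranged from 16942574 to 36641566, and every library held at least 107 counts of each of the 9 genes. The labels of genotype were checked with cryaa, which had 0 to 1 counts in WT libraries and 7 to 25 in miR-21OE libraries. The gene listed as MIR21 had 12 to 53 counts in WT-NCD against 117 to 210 in miR-21OE-NCD. On HCD it had 36 to 249 in WT against 152 to 160 in miR-21OE, so these ranges overlapped. They are raw counts, and the WT ranges cover all 9 batches, while miR-21OE libraries came from batches 7 to 9 only. The ranges are not a comparison paired by batch. As a check of the labelled tissue, the 10 hepatocyte markers summed to 17909 CPM at the lowest and 96157 CPM at the highest (CPM, counts relative to the library total scaled by its TMM factor), and each was detected. Library composition differed between batches: rn7sl1, a cytoplasmic RNA, took at most 2.77% of the reads of any library in batches 1 to 4 and at least 6.45% in batches 5 to 9. The labels name no separate cultures or parents beyond the batch, and p-values measure the spread between these pools.

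The comparison of HCD with NCD in WT livers asked how dietary cholesterol changes liver RNA. All 9 enzymes were on average lower on HCD, and 7 of the 9 passed the edgeR test that compared libraries of the same batch. The 9 enzymes together made up 1548 CPM to 2692 CPM in WT-NCD with a median of 2107, and 558 CPM to 2283 CPM in WT-HCD with a median of 1370. As a share of all reads, with no TMM factor, their medians were closer, 0.182% in WT-NCD (0.114% to 0.290%) and 0.167% in WT-HCD (0.0708% to 0.188%). The ranges of the diets overlapped on both scales. In the edgeR fit with the batch as a replicate block, cpt1ab, cpt2, acadm, acadl, acadvl, hadhaa and hadhb passed a Benjamini-Hochberg adjusted p of 0.05, all lower on HCD, where 3.4% of the 23934 genes tested fell. The median log2 fold change of the 9 was -0.80, beside 0.04 over all genes tested. In the edgeR fit without the block 0 of the 9 passed, where 0.301% of genes fell. In that fit 5 of the 9 had an unadjusted p under 0.05, a limit that 14.5% of all genes met in either direction. DESeq2 called cpt1ab and acadvl lower without the block, where 1.26% of genes fell, and 8 of the 9 with it, all but cpt1aa, where 7.3% fell. In a bulk sample, fewer cells of a type and less RNA per cell cannot be told apart.

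**Figure D1:**
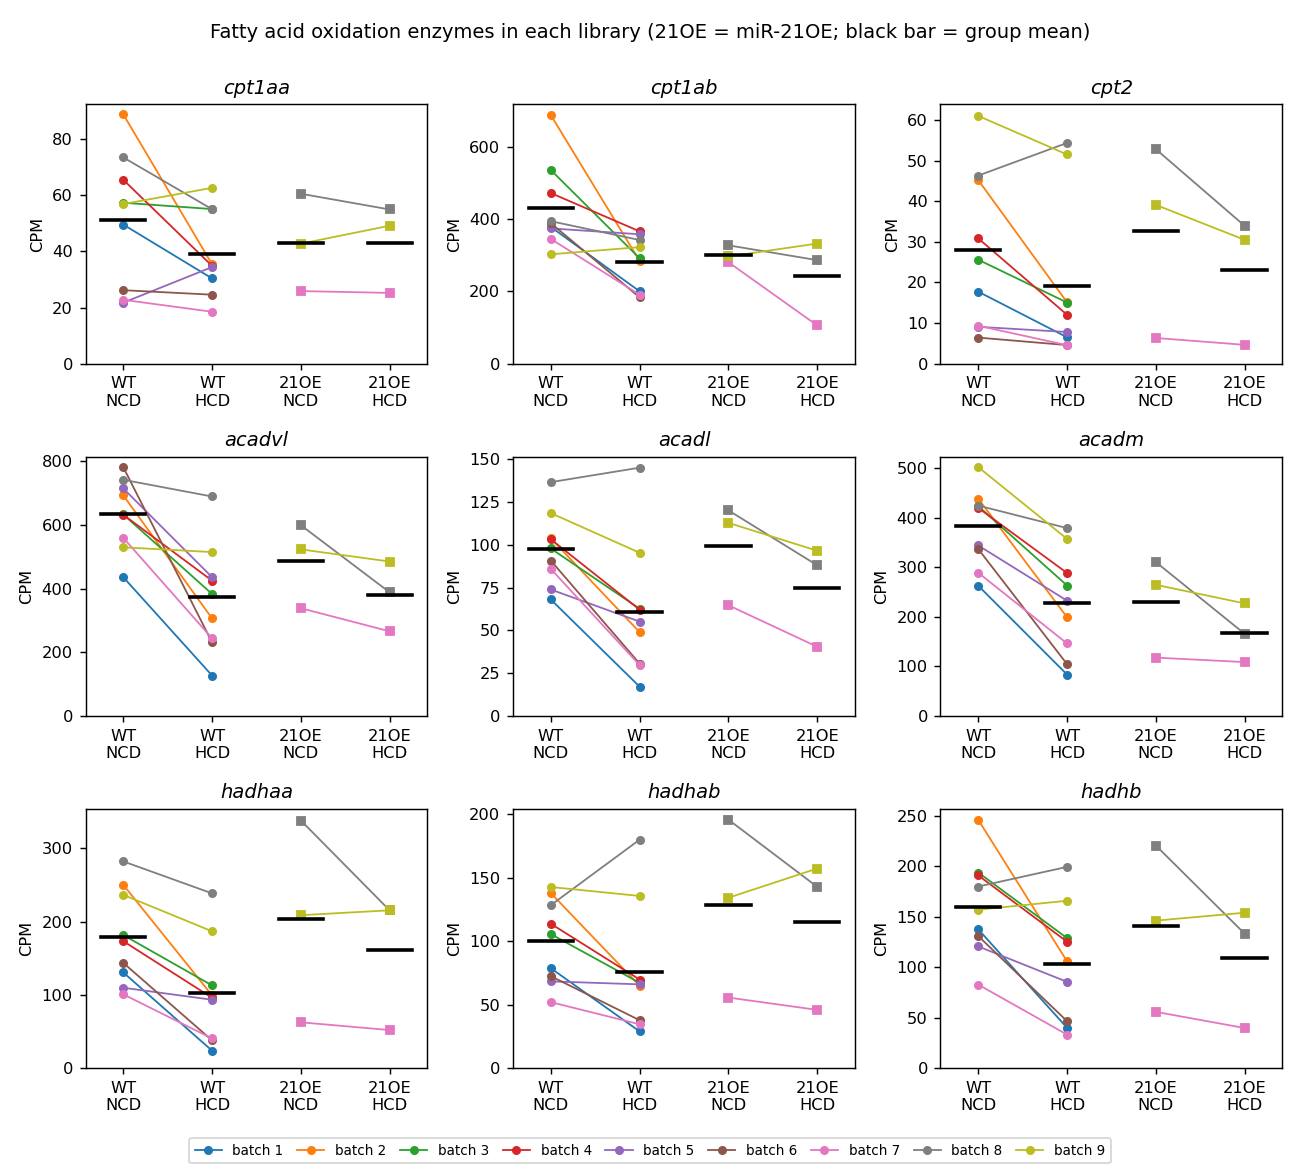
CPM of each of the 9 enzymes in each of the 24 libraries, by group, with lines joining NCD and HCD libraries of the same batch and genotype, colours for batches 1 to 9 and a black bar at the group mean. Most WT lines slope down from NCD to HCD, and WT-NCD and WT-HCD overlap for each enzyme.

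In the carnitine shuttle cpt1ab and cpt2 fell with the block and cpt1aa did not pass. For cpt1aa (ENSDARG00000059770), a copy of the liver form of Cpt1, the level was 21.7 CPM to 88.8 CPM in WT-NCD with a median of 56.9, and 18.5 CPM to 62.6 CPM in WT-HCD with a median of 34.8. It was lower on HCD in 7 of 9 batches and did not pass the blocked edgeR test, with a log2 fold change of -0.33 (SE 0.17, Benjamini-Hochberg adjusted p = 0.296). For cpt1ab (ENSDARG00000062054), the other copy, the level was 303 CPM to 689 CPM in WT-NCD with a median of 389, and 184 CPM to 366 CPM in WT-HCD with a median of 292. The groups overlapped, but cpt1ab was lower on HCD in 8 of 9 batches and fell by 0.61 on the log2 scale (SE 0.16, adjusted p = 0.0360 in edgeR with the block). For cpt2 (ENSDARG00000038618), the inner membrane transferase, the level was 6.43 CPM to 61.0 CPM in WT-NCD with a median of 25.6, and 4.56 CPM to 54.3 CPM in WT-HCD with a median of 12.0. The spread of cpt2 lay between batches: the 4 WT libraries of batches 8 and 9 had 46.3 CPM to 61.0 CPM, and the 6 of batches 5 to 7 had 4.56 CPM to 9.35 CPM. Within batches it was lower on HCD in 8 of 9, and with the block it fell by 0.76 (SE 0.18, adjusted p = 0.0266 in edgeR), against -0.55 (SE 0.53, adjusted p = 0.716) without it.

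The acyl-CoA dehydrogenases fell with little spread among themselves. For acadvl (ENSDARG00000016687), which acts on very long chains, the level was 436 CPM to 782 CPM in WT-NCD with a median of 633, and 127 CPM to 689 CPM in WT-HCD with a median of 383. It was lower on HCD in 9 of 9 batches and fell by 0.89 (SE 0.20, adjusted p = 0.0213 in edgeR with the block). For acadl (ENSDARG00000088357), the long-chain enzyme, the level was 68.1 CPM to 137 CPM in WT-NCD with a median of 97.8, and 17.2 CPM to 145 CPM in WT-HCD with a median of 55.1. The highest value of all 18 WT libraries for acadl was that of WT-HCD 8, the HCD library of the only batch in which acadl was not lower on HCD. Its blocked log2 fold change was -0.90 (SE 0.21, edgeR adjusted p = 0.0211). For acadm (ENSDARG00000038900), the medium-chain enzyme, the level was 263 CPM to 502 CPM in WT-NCD with a median of 420, and 83.7 CPM to 379 CPM in WT-HCD with a median of 233. It was lower in 9 of 9 batches and its blocked log2 fold change was -0.87 (SE 0.18, edgeR adjusted p = 0.0119).

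Of the genes of the trifunctional protein, hadhaa and hadhb fell with the block and hadhab did not pass. For hadhaa (ENSDARG00000057128), a copy of the alpha subunit gene, the level was 101 CPM to 282 CPM in WT-NCD with a median of 174, and 24.1 CPM to 239 CPM in WT-HCD with a median of 96.3. It was lower on HCD in 9 of 9 batches, with the largest blocked log2 fold change of the 9 enzymes, -1.02 (SE 0.23, edgeR adjusted p = 0.0213). For hadhab (ENSDARG00000060594), the other alpha copy, the level was 52.0 CPM to 143 CPM in WT-NCD with a median of 106, and 29.0 CPM to 180 CPM in WT-HCD with a median of 66.0. It was lower in 8 of 9 batches, and its log2 fold change of -0.56 (SE 0.18) missed the threshold with an edgeR adjusted p of 0.0835. For hadhb (ENSDARG00000102055), the beta subunit gene, the level was 82.8 CPM to 246 CPM in WT-NCD with a median of 157, and 33.3 CPM to 199 CPM in WT-HCD with a median of 106. It was lower in 7 of 9 batches and fell by 0.80 (SE 0.21, edgeR adjusted p = 0.0332 with the block). As background for these counts, 2.76% of all 23934 genes were lower on HCD in 9 of 9 batches, 7.75% in at least 8 and 15.2% in at least 7.

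**Figure D2:**
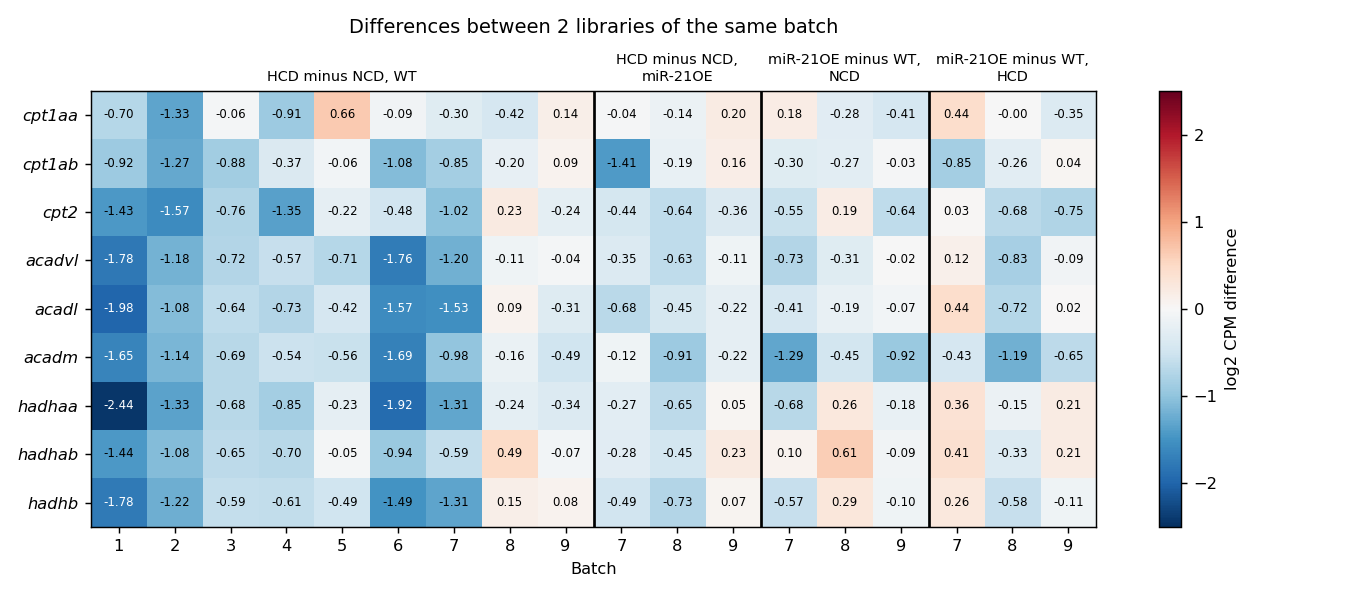
Differences in log2 CPM between 2 libraries of the same batch for each enzyme, with a column for each batch, in blocks for the diet in WT, the diet in miR-21OE and miR-21OE against WT on each diet; blue is lower and red is higher. Batches 1, 2, 6 and 7 are darkest blue for the WT diet, batches 8 and 9 are near white, and acadm is blue in all 6 comparisons of miR-21OE with WT. CPM is scaled by the TMM factor, which in WT was higher on HCD in each batch.

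Most enzymes were lower on HCD within most batches, and the values ranged widely over the batches. In batches 1, 2, 3, 4, 6 and 7 all 9 were lower on HCD, and in batch 5 all but cpt1aa. In batch 1 the log2 difference ran from -0.70 for cpt1aa to -2.44 for hadhaa, and in batch 6 from -0.09 for cpt1aa to -1.92 for hadhaa. In batch 8, cpt2, acadl, hadhab and hadhb were higher on HCD, by 0.23, 0.09, 0.49 and 0.15 on the log2 scale, and in batch 9 cpt1aa, cpt1ab and hadhb were, by 0.14, 0.09 and 0.08. The blocked edgeR fit of batches 1 to 6 alone, which shares no library with the miR-21OE comparisons, called 7 of the 9 lower, where 1.43% of genes fell, with a median log2 fold change of -0.995; here hadhab passed and cpt1ab did not. The blocked fit of the 4 groups in batches 7 to 9 called 0 of the 9 for the WT diet, where 0.06% of genes fell, with 2 of the 9 at an unadjusted p under 0.05, which 6.38% of all genes met, and a median of -0.36. Without the block edgeR called 0 there too, where 0.0% of genes fell, with 0 of the 9 at an unadjusted p under 0.05, and DESeq2 called 0. Whether the diet difference itself differed between these sets of batches was not tested.

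The calls also depended on which libraries were in the fit. With the block, the partner of a left-out WT library has no pair, so each such fit in effect also leaves its batch out of the diet contrast. Leaving out each WT library in turn, the blocked edgeR fit called between 1 and 8 of the 9. Without WT-HCD 7 only acadm passed, and acadl, acadvl and hadhaa had adjusted p-values of 0.0559, 0.0557 and 0.0541. Without any 1 of the WT libraries of batches 1 to 4, or without WT-NCD 7, 4 passed, and without WT-NCD 8 or WT-HCD 8 the count was 8. In these 18 fits acadm passed in 18, acadl, acadvl and hadhaa in 17, cpt2 in 8, cpt1ab in 6, hadhb in 5, hadhab in 2 and cpt1aa in 0. All 9 stayed below 0 in each of the 18.

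The scaling and the summed markers of some cell types moved with the diet, while the sums of others went both ways. The TMM factor, which lowers CPM as it rises, was higher in WT-HCD than in WT-NCD in each batch. From NCD to HCD it went from 1.33 to 2.10 in batch 1 and from 1.08 to 1.44 in batch 2. In batch 6 it went from 0.722 to 1.36 and in batch 7 from 0.737 to 0.954. The changes in batches 8 and 9 were from 0.712 to 0.794 and from 0.864 to 0.929. The within-batch differences in CPM include this shift. The 10 hepatocyte markers summed to 42613 CPM to 96157 CPM in WT-NCD and 17909 CPM to 85604 CPM in WT-HCD. The sum was lower on HCD in 8 of 9 batches. Its decreases were largest in batches 1, 6, 2 and 7, at -1.25, -1.19, -0.88 and -0.87 on the log2 scale. Taken marker by marker, the median log2 difference of the 10 was 0.002, 0.44 and 0.17 in batches 3, 5 and 9. This median was below 0 in the other batches. The medians of the 9 enzymes in batches 3, 5 and 9 were -0.68, -0.23 and -0.07. The 4 neutrophil markers summed to 3.63 CPM to 10.6 CPM in WT-NCD and 9.88 CPM to 317 CPM in WT-HCD, higher in 9 of 9 batches. The sums of the 4 macrophage markers and of the 4 biliary markers were also higher on HCD in 9 of 9. The sum of the 5 enterocyte markers was higher in 6 of 9 and lower in 3. Its medians were 23.9 CPM in WT-NCD and 33.5 CPM in WT-HCD, with a highest value of 995 CPM in a WT-HCD library. The 3 exocrine pancreas markers summed to 429 CPM to 8710 CPM in WT-NCD and 107 CPM to 10874 CPM in WT-HCD. This sum was higher on HCD in 4 of 9 batches and lower in 5, with log2 differences from -5.19 to 2.44. No marker of these lists was at 0 in all libraries. When libraries were scaled to the hepatocyte markers instead, a choice made after values were seen, the blocked edgeR fit called acadm, acadl, acadvl and hadhaa lower, where 1.02% of genes fell, with log2 fold changes of -0.49, -0.52, -0.51 and -0.65. Under that scaling cpt1aa turned to 0.05, and the median of all genes was 0.43. Scaling to library totals gave the same 4 calls with the block, where 1.53% of genes fell, with cpt1aa at 0.02 and a median of -0.45 over the 9, beside 0.39 over all genes. The part of neutrophils, macrophages, biliary cells, enterocytes and exocrine pancreas in the result was not tested.

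**Figure D3:**
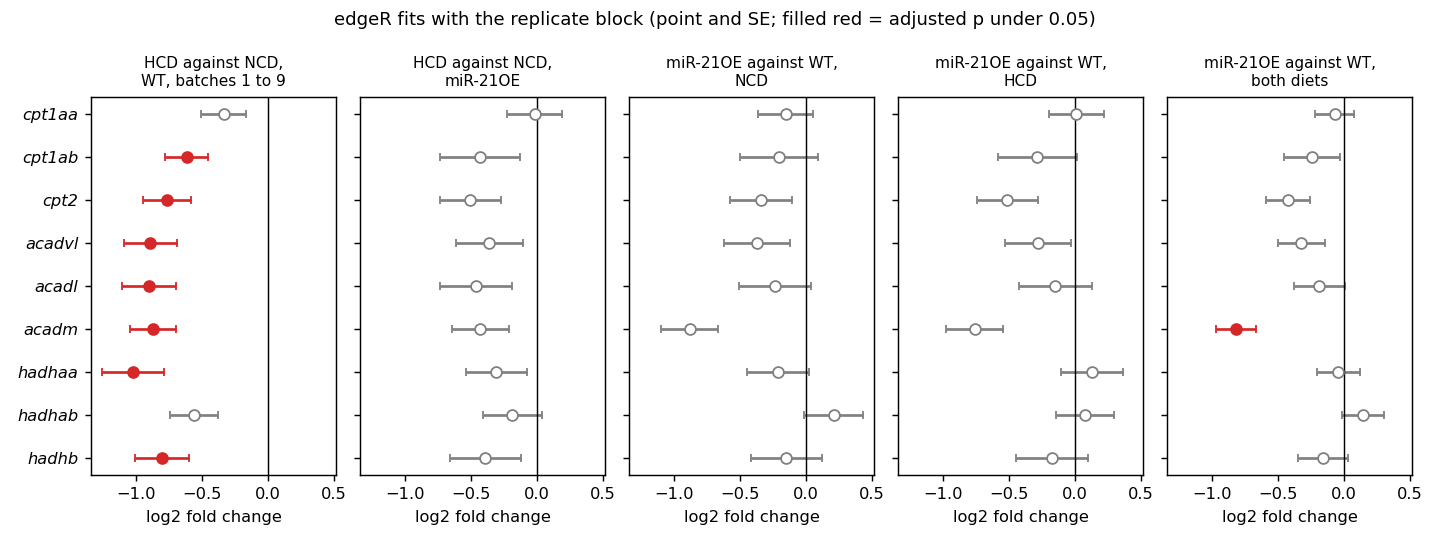
Log2 fold changes of the 9 enzymes in 5 comparisons from edgeR fits with the replicate block, as points with the SE as bars, filled red where the adjusted p was under 0.05. The WT diet panel has 7 filled points, the panel of miR-21OE over both diets has acadm alone at -0.82, and the other panels have none.

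The copies of a duplicated gene were compared within each library, which needs no scaling between libraries. Of the reads of hadhaa and hadhab together, hadhab made up 31.2% to 39.6% in WT-NCD, 36.01% ± 2.67 (SD, n = 9), and 37.3% to 54.7% in WT-HCD, 44.0% ± 5.40 (SD, n = 9). The share was higher on HCD in 9 of 9 batches, from 36.7% (95% Wilson interval 35.5% to 37.9%) against 37.3% (35.9% to 38.7%) in batch 3 to 37.6% (36.3% to 38.8%) against 54.7% (52.7% to 56.7%) in batch 1. These intervals cover counting error only. The log2 ratio of hadhab to hadhaa was higher on HCD by a mean of 0.48 (SD 0.38, exact sign-flip permutation test over 9 batches, two-sided, p = 0.00391, the smallest it can give, adjusted p = 0.0117 over 3 ratios). For cpt1aa to cpt1ab the mean difference was 0.28 (SD 0.52, exact permutation p = 0.137), higher in 6 of 9 batches. For hadhaa to hadhb it was -0.23 (SD 0.28, exact permutation p = 0.0469, adjusted p = 0.0703), lower in 7 of 9, which does not pass. The 3 ratios were chosen after the fold changes of the same libraries were seen, so these p-values are not independent evidence. In the 3 miR-21OE batches hadhab made up 47.0%, 36.6% and 39.1% on NCD and 46.8%, 39.8% and 42.1% on HCD. The batches with the largest rise in the hadhab share, 1, 6, 7 and 8, include 3 of the 4 with the largest decrease in hepatocyte markers, and the part of that in the ratio was not tested. In a RefSeq table of another assembly, hadhaa and hadhb neighbour each other, and without a stated strand setting of the counting the division of reads between near-identical or adjoining genes is uncertain.

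**Figure D4:**
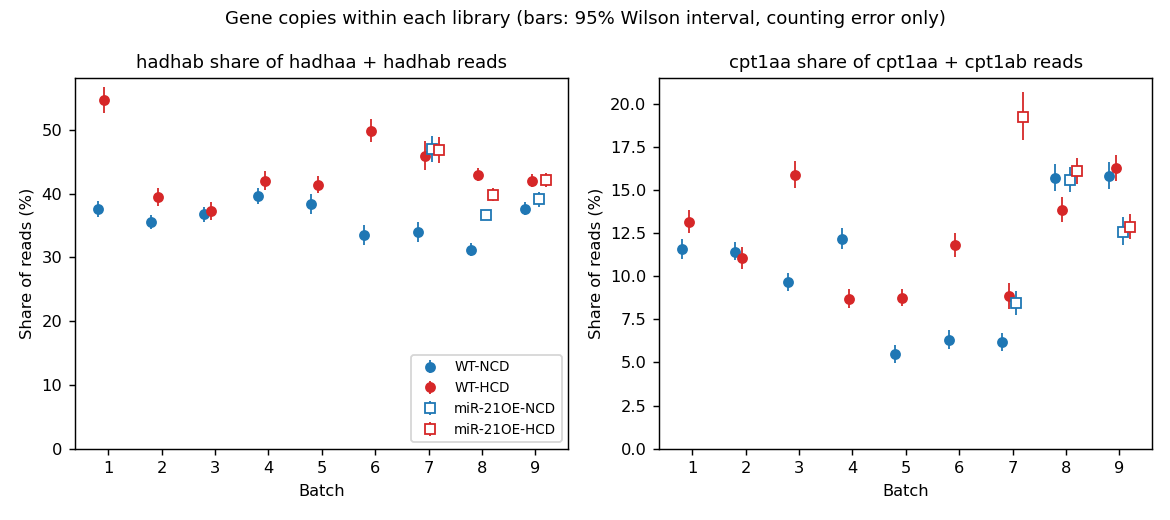
Share of reads from hadhab among hadhaa and hadhab (left) and from cpt1aa among cpt1aa and cpt1ab (right), in percent, in each library by batch, with 95% Wilson intervals; filled circles are WT, open squares miR-21OE, blue NCD and red HCD. The red circle lies above the blue for hadhab in all 9 batches, and for cpt1aa in 6.

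The comparison of miR-21OE with WT livers asked what overexpression of the microRNA changes on each diet, and it rested on 3 batches. Among the 9 enzymes only acadm was called lower in the transgenic livers, and only in fits with the block. On NCD, acadm was at 289, 425 and 502 CPM in WT libraries of batches 7, 8 and 9, and at 118, 311 and 265 CPM in miR-21OE libraries. On HCD it was at 146, 379 and 357 CPM in WT and 109, 166 and 227 CPM in miR-21OE. The groups overlapped on each diet, but within every batch the miR-21OE library was the lower, in 6 of 6 comparisons, which held for 3.95% of the 21660 genes tested. Averaged over the diets, acadm fell by 0.82 on the log2 scale (SE 0.15, edgeR with the block, Benjamini-Hochberg adjusted p = 0.0172), the only member called, where 0.923% of genes fell. Without the block 0 of the 9 passed in edgeR, where 0.171% fell. There acadm alone had an unadjusted p under 0.05, with -0.81 (SE 0.31, edgeR adjusted p = 0.435), and DESeq2 called 0 without the block and acadm with it, where 2.51% fell. The call held in 8 of 12 blocked fits that left out 1 library, with edgeR adjusted p-values from 0.0178 to 0.0698. It was lost without WT-NCD 7, miR-21OE-NCD 1, WT-HCD 8 or miR-21OE-HCD 2. With library totals and with hepatocyte marker scaling the blocked edgeR values were -0.70 (adjusted p = 0.0268) and -0.73 (adjusted p = 0.0329). Hepatocyte markers summed to 59961 CPM to 86802 CPM in miR-21OE-NCD and 60882 CPM to 82238 CPM in miR-21OE-HCD. Both lay within the range of WT-NCD over all 9 batches, which is not a paired comparison. Paired with WT of the same batch and diet, the 10 markers had median log2 differences of -0.15, -0.18 and -0.10 on NCD in batches 7, 8 and 9. On HCD these medians were 0.75, -0.33 and -0.32. In the blocked edgeR fit averaged over diets 0 genes of the marker lists passed, but 3 of 4 endothelial markers had an unadjusted p under 0.05 (list median -0.35 on the log2 scale), beside 13.4% of all genes. All 5 enterocyte markers and all 4 macrophage markers had values above 0 (medians 1.08 and 0.54, with 1 of each list at an unadjusted p under 0.05). The 3 exocrine pancreas markers summed to 277 CPM to 19529 CPM in miR-21OE-NCD and 197 CPM to 902 CPM in miR-21OE-HCD. The part of endothelial cells, enterocytes, macrophages and exocrine pancreas in the value of acadm was not tested.

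The other 8 enzymes gave no call in this comparison. Averaged over diets, their blocked log2 fold changes ran from -0.43 for cpt2 (SE 0.17, edgeR adjusted p = 0.264) and -0.32 for acadvl (SE 0.18) to 0.14 for hadhab (SE 0.16). For cpt1ab the value was -0.24 (SE 0.21, edgeR adjusted p = 0.698). In that fit 8 of the 9 enzymes, acadm included, had values below 0, and in the fit without the block 7 did. With the block both acadm and cpt2 had an unadjusted p under 0.05, which 13.4% of all genes met. For cpt2 the WT libraries of batches 7, 8 and 9 had 9.35, 46.3 and 61.0 CPM on NCD and the miR-21OE libraries 6.34, 52.8 and 39.1 CPM, so the groups overlapped. For acadvl they had 560, 742 and 530 CPM on NCD in WT against 339, 599 and 523 CPM in miR-21OE, and over both diets it was lower in miR-21OE in 5 of 6 comparisons, with batch 7 on HCD higher by 0.12 on the log2 scale. On NCD alone, edgeR with the block called 0 of the 9, where 0.148% of genes fell, with acadm at -0.88 (SE 0.22, adjusted p = 0.156). It alone had an unadjusted p under 0.05. On HCD alone it called 0, where 0.106% of genes fell, with acadm at -0.76 (SE 0.22, adjusted p = 0.274), and acadm and cpt2 had an unadjusted p under 0.05. Without the block edgeR called 0 on each diet, where 0.00923% of genes fell on NCD and 0.0% on HCD, with 0 at an unadjusted p under 0.05. DESeq2 called 0 without the block and, with it, acadm on NCD and on HCD (adjusted p = 0.00569 and 0.0351), where 0.988% and 0.619% of genes fell. Averaged over diets, cpt1aa, acadl, hadhaa, hadhab and hadhb each changed sign under at least 1 of the alternatives run. No direction is claimed for them, and the signs above describe single fits.

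In miR-21OE livers the diet was compared in 3 batches, and 0 of the 9 enzymes passed in edgeR with or without the block, where 0.00923% of genes fell with it and 0.0% without. None had an unadjusted p under 0.05 in edgeR, and DESeq2 called 0. All 9 blocked log2 fold changes were negative, with a median of -0.39, from -0.02 for cpt1aa (SE 0.21) to -0.50 for cpt2 (SE 0.23). Within batches cpt2, acadm, acadl and acadvl were lower on HCD in 3 of 3. The share of all genes that were lower in 3 of 3 was not counted, so this count has no background beside it. For acadl the values were 64.7, 120 and 113 CPM on NCD and 40.4, 88.0 and 96.5 CPM on HCD. For hadhaa they were 62.8, 338 and 209 CPM on NCD and 52.2, 215 and 216 CPM on HCD, with batch 9 nearly equal on the diets. The WT libraries of the same batches gave blocked values from -0.05 for hadhab (SE 0.22) to -0.65 for hadhaa (SE 0.24). The test of the difference itself, the genotype-by-diet interaction, called 0 of the 9 in edgeR and in DESeq2, with or without the block, where edgeR called 0.0% of all genes. Of the 9, 0 had an unadjusted p under 0.05. Its blocked estimates ran from -0.17 for cpt2 (SE 0.33) to 0.34 for hadhaa (SE 0.33). The comparisons of batches 7 to 9 share libraries.

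Other genes of fatty acid oxidation were among those whose levels tracked the 9 enzymes most closely over libraries. After the mean of each batch was taken out of log2 CPM, the mean of the 9 standardised enzymes was correlated with each of 11697 genes over the 24 libraries, as a description in which all points share their libraries and scaling. Outside the set, the highest Pearson r was 0.966 for eci2 (listed as ECI2), which shifts double bonds of unsaturated acyl-CoA. Also among the closest were oxct1b at 0.961, an enzyme of ketone body use, hadh (HADH) at 0.958, the dehydrogenase for shorter chains, and etfdh (ETFDH) at 0.955, which passes electrons from acyl-CoA dehydrogenases to the respiratory chain. Among the members themselves, which are part of the mean, hadhb was highest at 0.977 and acadl next at 0.964, and cpt1aa was lowest at 0.677. By this measure cpt1aa stood at rank 1204 of the 11697 genes and acadm at rank 134.

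The rest of the pathway was described from lists chosen with earlier results known. The list of 17 other beta-oxidation enzymes also holds acadsb, acad8, ivd and hsd17b10, which are best known from the breakdown of branched-chain amino acids. These were lower on HCD in 9, 8, 9 and 6 of 9 batches. In the blocked edgeR fit of the WT diet 3.4% of all genes fell and 4.09% rose. Of the 17 listed genes 10 fell and 0 rose, with a median log2 fold change of -0.62. Among these were acaa1 at -1.29 (SE 0.23), a thiolase that acts in peroxisomes, acads at -0.82 (SE 0.17), the short-chain dehydrogenase, and hadh at -0.96 (SE 0.21). Of 8 further carnitine genes 4 fell, including crot at -1.30 (SE 0.24), cpt1b at -1.82 (SE 0.37), the muscle form of Cpt1 in mammals, and slc25a20 at -1.001 (SE 0.23), the carnitine-acylcarnitine carrier. For cpt1b the level was 34.6 CPM to 376 CPM in WT-NCD with a median of 177, and 5.40 CPM to 271 CPM in WT-HCD with a median of 65.8. Of 15 peroxisomal genes 6 fell, including decr2 at -1.04 (SE 0.15), hsd17b4 at -1.18 (SE 0.24) and abcd2 at -1.28 (SE 0.27). Of 14 acyl-CoA synthetases, which activate fatty acids, slc27a2a and slc27a2b fell by 0.79 and 0.83 and acsl1b rose by 1.71 (SE 0.17). In the fit without the block, edgeR called 0 of 17, 0 of 8, 0 of 15 and 1 of 14 genes of these lists. The 1 was acsl1b, which rose. Of all 23934 genes tested, 276 were called in that fit in either direction. At an unadjusted p under 0.05 the counts were 5, 3, 5 and 3, beside 14.5% of all genes.

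**Figure D5:**
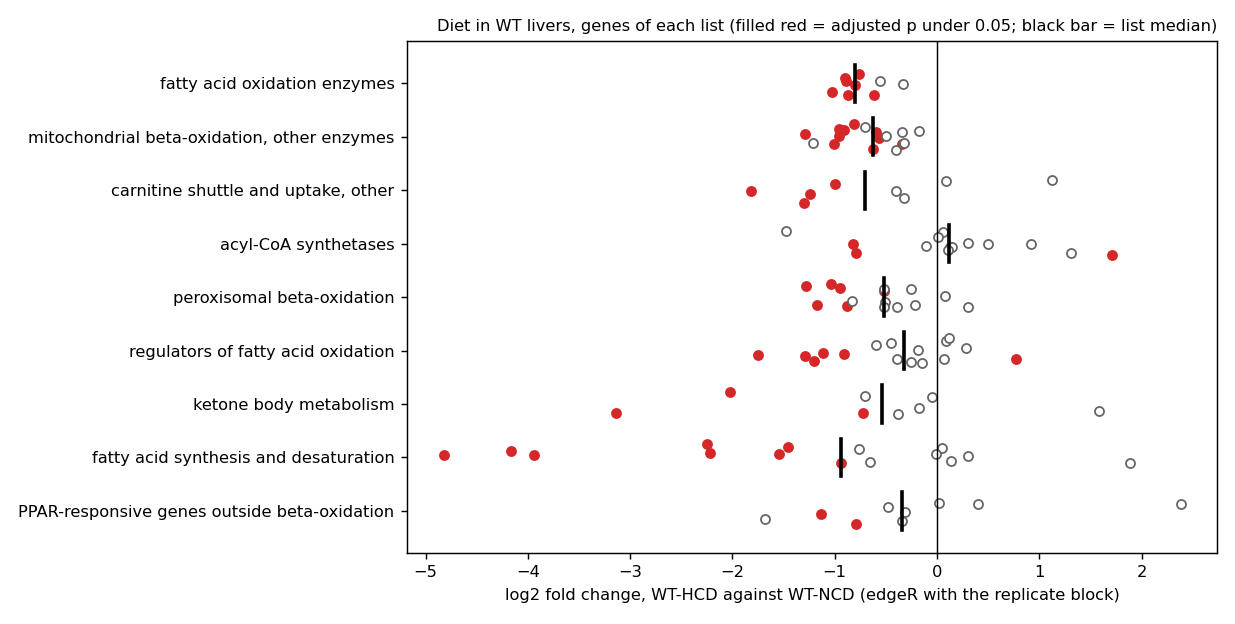
Log2 fold changes of WT-HCD against WT-NCD for the genes of the 9 lists, from the edgeR fit with the replicate block, as a point per gene, filled red where the adjusted p was under 0.05, with a black bar at the list median. The 9 enzymes lie between -1.02 and -0.33, and the acyl-CoA synthetases spread to each side of 0.

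Of 16 regulators 5 fell and 1 rose with the block, where 3.4% of all genes fell and 4.09% rose. The receptor gene pparaa was at 31.6 CPM to 127 CPM in WT-NCD with a median of 61.4, and 13.4 CPM to 58.5 CPM in WT-HCD with a median of 29.9. It was lower in 9 of 9 batches and fell by 1.29 (SE 0.13, edgeR adjusted p = 0.000246), and it passed without the block too (-1.28, adjusted p = 0.0230). Its paralog pparab had -0.39 (SE 0.17, edgeR adjusted p = 0.205) and did not pass. Also called were mlycd, which breaks down malonyl-CoA, at -1.21 (SE 0.20), and acacb, which makes it at mitochondria, at -1.11 (SE 0.18). Of 15 genes of fatty acid synthesis and desaturation, with each ID of acly counted, 8 fell. These included fads2 (listed as FADS3) at -4.82 (SE 0.32), elovl2 at -4.16 (SE 0.37) and elovl6 at -3.94 (SE 0.40), with 1 count of elovl6 in the lowest WT-HCD library. Directions within the list were mixed: fasn and srebf1 were lower on HCD in 4 of 9 batches, gpam in 3 and scd in 1. Of 8 genes of ketone body metabolism 3 fell. The mitochondrial thiolase acat1 had -0.73 (SE 0.17), while acat2 at -2.02 (SE 0.43) and hmgcs1 at -3.14 (SE 0.70) are cytosolic enzymes known for sterol synthesis. Of 9 PPAR-responsive genes outside beta-oxidation 2 fell, cidec by 0.79 (SE 0.20) and angptl4 by 1.13 (SE 0.31). The others did not go 1 way: fgf21 was lower on HCD in 0 of 9 batches, hmox1a in 3 and ucp2 in 4. The counts were 6 for pdk4 and cd36 and 7 for plin2 and cyp4t8. Without the block edgeR called 2 of 16, 3 of 15, 2 of 8 and 0 of 9 genes of these lists, all lower. In that fit 0.301% of all genes fell.

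For miR-21OE averaged over diets, where 0.923% of genes fell and 1.24% rose with the block, the lists held few calls. Of the 17 genes of the beta-oxidation list, the 16 regulators and the 9 PPAR-responsive genes 0 passed in edgeR with or without the block. With it 8, 2 and 3 had an unadjusted p under 0.05, beside 13.4% of all genes. Directions within the list of 17 were mixed. Within batch and diet, acadsb, acad9 and eci1 were lower in miR-21OE in 0 of 6 comparisons, and hsd17b10 and etfa in 6 of 6. Lower in 6 of 6 held for 3.95% of genes tested. The share at 0 of 6 was not counted, so that count has no background beside it, here and for cratb below. Of the synthetases slc27a6 fell by 3.27 (SE 0.33, edgeR adjusted p = 0.000484), in 6 of 6 comparisons within batch, and acsl4b by 2.63 (SE 0.53), in 5 of 6. The carnitine acetyltransferase gene cratb rose by 1.01 (SE 0.19) and was lower in 0 of 6. The gene mlxipl, a carbohydrate-responsive transcription factor, fell by 0.78 (SE 0.15) in 6 of 6, and fads2 rose by 1.12 (SE 0.22), though it was lower in 2 of 6. Of these named genes, edgeR called slc27a6 without the block and not acsl4b, cratb, mlxipl or fads2. The receptor genes gave -0.31 for pparaa (SE 0.20, edgeR adjusted p = 0.557) and -0.72 for pparab (SE 0.19, edgeR adjusted p = 0.0790), neither past the threshold. Within batch and diet, pparab was lower in miR-21OE in 6 of 6 comparisons, which held for 3.95% of genes tested, and pparaa in 4 of 6.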

How the data were processed

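Livers of 24 pools were sequenced after ribosomal RNA depletion. Gene-level raw counts on GRCz11, not normalized, were deposited by the authors in 1 table. The submitters' processing notes name STAR 2.7.9a, cutadapt 1.16 and featureCounts 1.6.3; the strand setting and annotation release are not given in the sources used here. Groups and batches came from the labels. Of 32520 IDs, 29201 had a symbol in the gene table. Some names were taken from the study's gene lists. Others, cpt1aa and hadhab among them, were assigned from the human symbol because the other copy was named separately or absent. The 2 IDs listed as SLC27A1 and the 2 listed as RXRA could not be told apart by copy.

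Genes were tested with the two-sided quasi-likelihood F-test of edgeR 4.0.16 (R 4.3.3), with TMM, at least 10 counts in total, and Benjamini-Hochberg adjustment over all genes tested (threshold 0.05). The 18 WT libraries and the 12 libraries of batches 7 to 9 were fitted separately, without a batch term; the study's methods name DESeq2 and state no design formula. The SE is the log2 fold change divided by the square root of F. After group means were taken out, libraries of the same batch correlated over 11697 genes (9 WT pairs, mean r 0.592, minimum 0.358; 18 pairs of batches 7 to 9, mean 0.433, minimum 0.14), all above 0.1, and labels give them the same clutch, so the batch pairs them. Values with the batch as replicate block are given beside those without.

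Within-batch differences used log2(CPM + 0.1). Shares have 95% Wilson intervals. The fits were tested on simulated data. Alternatives were DESeq2 1.42.0, other scalings, other filters, subsets of batches and leaving out each library. The subsets 1 to 4 and blocked 5 to 9, scaling to hepatocyte markers and the copy ratios were added after values were seen. Members and lists were chosen with earlier results of these data known. From each list up to 3 genes with the lowest adjusted p past the threshold are named, for the WT diet and for miR-21OE averaged over diets, plus pparaa, pparab and the 5 genes most correlated with the members; some genes that this rule names are not reported here. Further genes of some lists are named with counts of batches or comparisons only, to give the directions within a list. No sequences and no gene lengths were used here, so a planned promoter motif count was not run and levels are not compared between genes.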

Additional observations from a re-analysis of the deposited data

How the results depend on the processing

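With the edgeR fit without a block as the reference, the number of the 9 enzymes called for the diet in WT livers moved from 0 to 7 with the replicate block, 2 with DESeq2, 8 with DESeq2 and the block, 4 with the block and library totals, 7 in batches 1 to 6 with the block and 4 with the block and hepatocyte marker scaling. Leaving out 1 library gave 0 to 0 without the block and 1 to 8 with it. It stayed at 0 with DESeq2 size factors, library totals, either other filter, hepatocyte marker scaling without the block, batches 1 to 6 without the block, and batches 1 to 4 or 5 to 9 with or without it; in the blocked fit of batches 1 to 4 all 9 had an unadjusted p under 0.05, beside 14.8% of all genes. For miR-21OE averaged over diets the count moved from 0 to 1 with the replicate block, with DESeq2 and the block, with the block and library totals and with the block and hepatocyte marker scaling, and was 0 to 1 over the blocked fits that left out 1 library. On NCD and on HCD it moved from 0 to 1 only with DESeq2 and the block. The 1 was acadm each time. The count was 0 under every alternative run for the interaction and for the diet in miR-21OE livers or in WT livers of batches 7 to 9. No value past the threshold in either fit changed sign; of 2340 member values recomputed, 270 changed sign between fits that called neither, 2 of these in the WT diet of all batches. The 2 were cpt1aa with the block under library totals and under hepatocyte marker scaling. The causes of these changes were not tested. Every member had at least 107 counts in every library.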
